A study of Mus musculus with 9 samples.

Results

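The 8 genes described here encode proteins of the B, T and NK cell lineages, and they were followed in a mouse myeloid leukaemia line in which a subunit of Polycomb repressive complex 2 (PRC2) was knocked down. Bank1, Cd79a and Ebf1 stand for B cells, Cd3e and Cd28 for T cells and Prf1 for NK and cytotoxic T cells, while Rag1 and Rag2 act in the precursors of both B and T cells. They were 8 of 19937 genes measured. They were picked as lymphoid genes mostly silent in myeloid cells, and the set was chosen by measured values too: the levels and changes of such genes on these same arrays were known when it was drawn up. Their levels are therefore given as a description, and the number of them that changed supports nothing about lymphoid genes in general. Each gene had a single probe set with only its symbol, so the rule for choosing among probe sets, by mean level over the 9 arrays, had nothing to choose.

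The cells were a murine leukaemia line carrying MLL-AF9 and NrasG12D, on a B6/SJL (CD45.2) background. All cells had been transduced with an LMN vector, of the MSCV retroviral family, and RNA was taken at day 5. The vector carried a control shRNA (named Rluc in the labels) or an shRNA against Eed or Suz12, with 3 arrays in each group. The labels do not state whether the line is clonal or whether replicate arrays stem from separate cultures, and the spread behind each p-value may therefore be technical. Eed lay at 10.24, 10.14 and 10.27 in the controls (log2 expression) and at 8.34, 8.56 and 8.51 under Eed shRNA. Suz12 lay at 12.10, 12.09 and 12.23 in the controls and at 10.14, 10.06 and 10.28 under Suz12 shRNA. Each shRNA thus lowered its target without overlap with the controls. The cells had a myeloid profile: all 12 myeloid identity genes of the list used were above the background guide explained below, with control means of 13.33 for Mpo (myeloperoxidase), 11.91 for Itgam (the integrin chain CD11b) and 9.40 for Csf1r (the macrophage growth factor receptor).

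PRC2 places methyl groups on histone H3 at genes that a cell keeps silent, and Eed and Suz12 are subunits that its enzyme needs. In blood formation, lymphoid genes are switched on in lymphoid precursors and are kept low in granulocytes and monocytes. EBF1 commits precursors to the B lineage and turns on Cd79a. The RAG1 and RAG2 proteins together cut the antigen receptor genes so that they can be rearranged. CD79A and CD3E are signalling chains of the B cell and T cell receptors, CD28 gives T cells their costimulatory signal, BANK1 is a scaffold that joins the kinase LYN to calcium release in B cells, and perforin makes the pores through which cytotoxic cells kill.

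The sequence before the gene start is shown for Bank1 and Prf1, the members that differed most among the groups, and for Rag1 and Ebf1, members that stayed near background. Each run is the 250 bases before a start in RefSeq (GRCm38.p6), written 5′ to 3′ on the strand of the gene, and 7 of the 8 members matched that table. Capitals mark the core of a RUNX site (TGTGGT, or its reverse complement ACCACA) and the core of a PU.1 site (GAGGAA, or its reverse complement TTCCTC). Ebf1 has 2 starts in the table, and both are given. The windows are chr3:136326067-136326316 (minus strand), chr10:61297586-61297835 (plus), chr2:101649533-101649782 (minus), chr11:44617850-44618099 and chr11:44619978-44620227 (plus).
Bank1: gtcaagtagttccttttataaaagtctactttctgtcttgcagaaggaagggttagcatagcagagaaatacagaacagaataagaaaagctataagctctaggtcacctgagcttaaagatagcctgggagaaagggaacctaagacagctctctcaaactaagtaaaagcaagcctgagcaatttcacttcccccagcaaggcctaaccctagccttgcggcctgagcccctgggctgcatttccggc
Prf1: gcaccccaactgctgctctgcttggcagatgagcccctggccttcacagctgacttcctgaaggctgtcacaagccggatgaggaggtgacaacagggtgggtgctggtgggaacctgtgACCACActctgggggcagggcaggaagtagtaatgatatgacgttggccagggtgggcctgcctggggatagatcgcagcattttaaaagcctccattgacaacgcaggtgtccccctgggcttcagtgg
Rag1: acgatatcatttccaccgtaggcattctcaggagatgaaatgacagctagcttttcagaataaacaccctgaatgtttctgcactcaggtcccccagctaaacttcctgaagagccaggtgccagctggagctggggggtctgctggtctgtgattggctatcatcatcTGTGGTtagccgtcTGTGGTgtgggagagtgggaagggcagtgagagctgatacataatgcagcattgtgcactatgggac
Ebf1, start 1: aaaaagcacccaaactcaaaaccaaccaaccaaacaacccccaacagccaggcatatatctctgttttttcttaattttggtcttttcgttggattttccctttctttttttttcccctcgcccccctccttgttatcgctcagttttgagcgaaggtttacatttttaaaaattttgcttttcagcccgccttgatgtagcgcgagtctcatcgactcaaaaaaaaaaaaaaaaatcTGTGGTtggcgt
Ebf1, start 2: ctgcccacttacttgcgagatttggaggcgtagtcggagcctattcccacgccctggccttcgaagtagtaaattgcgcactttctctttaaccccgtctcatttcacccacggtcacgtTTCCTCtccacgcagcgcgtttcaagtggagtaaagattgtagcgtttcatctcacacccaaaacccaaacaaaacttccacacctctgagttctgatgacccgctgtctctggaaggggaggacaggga

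These promoters differed in their CG dinucleotides, the sites whose density marks CpG islands. The Bank1 window held 2 CGs, Rag1 and Rag2 held 3 each and Prf1 4, against a median of 6 over 32851 promoters of the same length. The Ebf1 windows held 9 and 14, Cd3e 7 and Cd79a 6. Bank1 and Prf1, which rose in both knockdowns, thus had fewer CGs than the median promoter, as did Rag1 and Rag2, which did not rise. A RUNX core was present in Prf1 (1), in Rag1 (2) and at the first start of Ebf1 (1), and 14.0% of all promoters held at least 1. A PU.1 core was present once each in Cd79a, Rag2, Cd3e and the other Ebf1 start, against 23.3% of all promoters. An E-box (CANNTG) was found in all 7 matched genes, with 4 in Prf1, 3 in Rag1 and 1 in Bank1, and in 66.2% of all promoters. The Bank1 window held neither a RUNX nor a PU.1 core on either strand. These counts describe letters in a window and are not evidence of binding.

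RMA values carry no detection call, so the level of 1027 olfactory receptor genes, which blood cells mostly do not express, served as a guide to background. In the controls these genes had a median of 4.92 and a 95th percentile of 6.32, the value called the guide here. Probe sets respond differently, so a position relative to the guide is approximate. Cd28, Prf1, Bank1 and Cd3e lay above it in every group, and Rag1, Ebf1, Cd79a and Rag2 lay below it in every group. Just above the guide was Cd3e, with a control mean of 6.82, and just below it was Rag1, with 5.56. Over all genes, 66.7% of control means lay above the guide. With the 99th percentile of the olfactory receptors (7.23) in its place, only Cd28 lay above it in the controls, joined by Bank1 and Prf1 in both knockdowns.

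**Figure D1:**
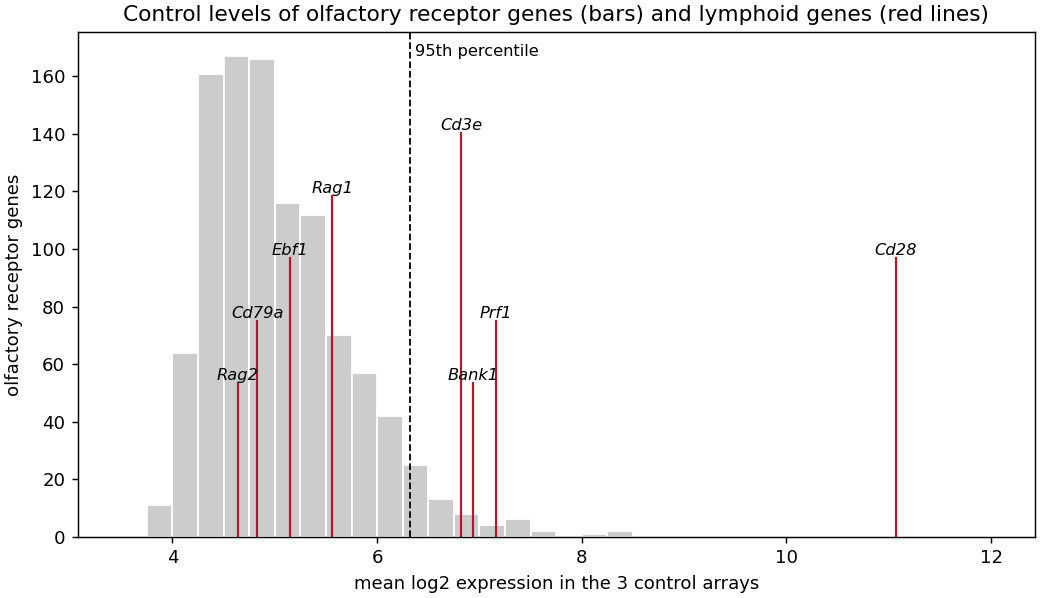
Bars give the number of olfactory receptor genes by mean log2 expression in the 3 control arrays, red lines the control means of the 8 lymphoid genes, and the dashed line the 95th percentile of the olfactory receptors (6.32). Cd28 stands far to the right of all olfactory receptors at 11.07, and Rag2, Cd79a, Ebf1 and Rag1 lie inside the main body of the bars.

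The signal of the Cd28 probe set was not that of a silent gene. Its values were 10.96, 11.27 and 10.98 in the controls, 11.46, 11.41 and 11.24 under Eed shRNA and 11.22, 11.27 and 11.33 under Suz12 shRNA. The highest control mean of any olfactory receptor was 8.48, and 88.2% of all genes had a lower control mean than Cd28. A single probe set carries this level, no other probe set with only that symbol was there to compare, and whether it reads Cd28 alone was not tested.

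Eed shRNA raised 3 of the 8 genes and lowered 0, while Suz12 shRNA raised 2 and lowered 1, each at an adjusted p under 0.05 over all genes (limma). Among all genes tested, Eed shRNA gave calls for 21.8% (8.78% up and 13.1% down) and Suz12 shRNA for 21.2% (8.25% up and 12.9% down). Bank1 and Prf1 were higher in both comparisons, Cd28 was higher in the first only and Rag2 lower in the other only. The median change of the 8 genes was 0.00 under Eed shRNA and 0.05 under Suz12 shRNA, against -0.01 and -0.02 for all genes. The comparisons share their control arrays. By the moderated F test over the 3 groups, Bank1 (adjusted p = 5.04e-06) and Prf1 (adjusted p = 2.8e-05) differed among the groups, as did 21.1% of all genes. Rag2 (0.0645) and Cd28 (0.0629) did not pass that test.

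**Figure D2:**
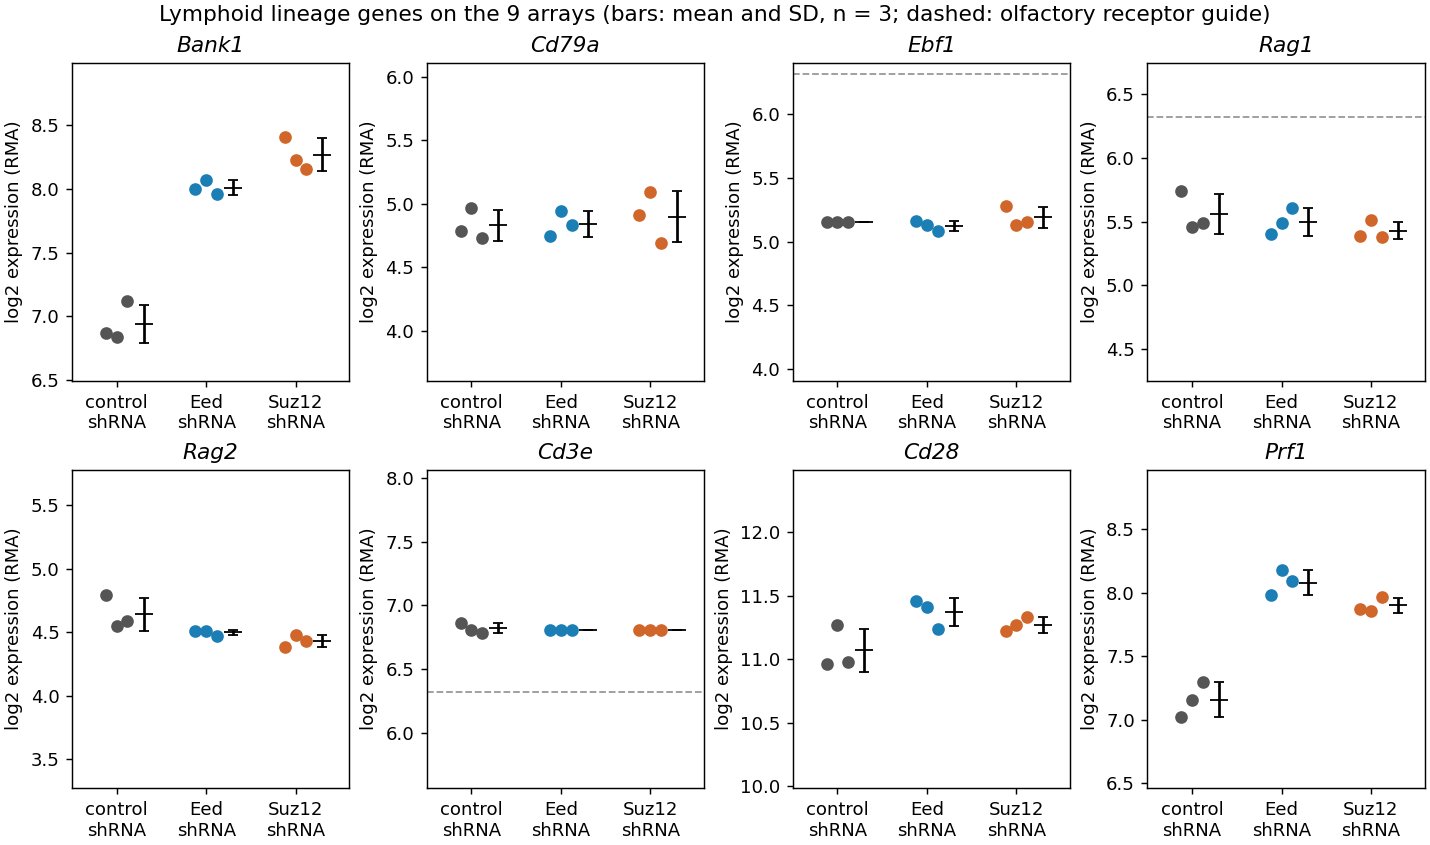
Log2 expression of each gene on the 9 arrays, in panels that each span 2.5 log2 units; coloured points are arrays, black bars the group mean and SD (n = 3), and the dashed line the olfactory receptor guide where it falls inside the panel. Bank1 and Prf1 step up in both knockdown groups, and the other panels are nearly flat on this scale.

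Bank1, the B cell scaffold gene, rose most. It was at 6.87, 6.84 and 7.12 in the controls, 8.0, 8.07 and 7.96 under Eed shRNA and 8.41, 8.23 and 8.16 under Suz12 shRNA. All 6 knockdown arrays were above all 3 controls, and every Suz12 shRNA array was above every Eed shRNA array. Eed shRNA raised it 2.09-fold, a log2 change of 1.07 with an SE of 0.08 (adjusted p = 1.25e-05). With Suz12 shRNA the rise was 2.50-fold, or 1.32 with an SE of 0.08 (adjusted p = 2.76e-06). Including Bank1 itself, 133 of all genes rose by at least that much under Eed shRNA and 78 under Suz12 shRNA. In RNA from a whole culture, a larger share of cells with the transcript and more transcript per cell cannot be told apart.

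Prf1, the perforin gene, rose less. Its values were 7.02, 7.16 and 7.30 in the controls, 7.98, 8.18 and 8.09 under Eed shRNA and 7.87, 7.86 and 7.97 under Suz12 shRNA. The knockdown arrays again lay above all controls, and here the Eed shRNA arrays were the higher of the knockdowns. Eed shRNA raised it 1.90-fold, a log2 change of 0.92 with an SE of 0.07 (adjusted p = 1.59e-05). With Suz12 shRNA the rise was 1.67-fold, or 0.74 with an SE of 0.07 (adjusted p = 6.73e-05). Among all genes, 12.9% had every Eed shRNA array above every control and 11.9% every Suz12 shRNA array above every control.

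Cd28 rose slightly where it was called. Its change was 0.30 under Eed shRNA (1.23-fold, SE 0.08, adjusted p = 0.0264) and 0.20 under Suz12 shRNA (95% interval 0.02 to 0.39, adjusted p = 0.127). Control replicate 2, at 11.27, was above the lowest array of each knockdown, so the groups overlapped in both comparisons. The Eed shRNA call was lost without control replicate 1 (0.25) or 3 (0.26), without Eed shRNA replicate 1 (0.25) or 2 (0.28), with arrays centred on their medians (0.24) and in a fit of the 2 groups alone (0.30). Without control replicate 2, Cd28 was called under Suz12 shRNA as well (0.30, adjusted p = 0.013).

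The recombinase genes stayed at the level of the olfactory receptors. Rag1 was at 5.74, 5.46 and 5.49 in the controls, 5.40, 5.49 and 5.61 under Eed shRNA and 5.39, 5.51 and 5.38 under Suz12 shRNA, with changes of -0.06 (95% interval -0.24 to 0.12) and -0.13 (-0.31 to 0.04) that were not called. Rag2 was at 4.79, 4.55 and 4.59 in the controls, 4.51, 4.51 and 4.47 under Eed shRNA and 4.38, 4.48 and 4.43 under Suz12 shRNA. Every knockdown value of Rag2 lay below every control, which was true of 19.4% of all genes under Eed shRNA and 19.9% under Suz12 shRNA. Its change of -0.21 under Suz12 shRNA was called (SE 0.06, adjusted p = 0.0285), and that of -0.15 under Eed shRNA was not (adjusted p = 0.125). The call was lost without control replicate 1 (-0.14), the highest control value, without Suz12 shRNA replicate 1 (-0.19) or 3 (-0.22), and in a fit of the 2 groups alone (-0.21, adjusted p = 0.0727), and Rag2 was called under Eed shRNA after centring on array medians (-0.21). The control mean of Rag2 was above that of 31.8% of olfactory receptor genes, so the call compares levels within the background range.

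The genes of the receptor chains and of the B lineage regulator were not called in either comparison with the control. Cd79a was at 4.79, 4.97 and 4.73 in the controls, 4.75, 4.94 and 4.83 under Eed shRNA and 4.91, 5.09 and 4.69 under Suz12 shRNA, and its groups overlapped fully. The 95% interval of its change ran from -0.21 to 0.23 under Eed shRNA and from -0.15 to 0.29 under Suz12 shRNA. Ebf1 was at 5.15 in all 3 controls, at 5.16, 5.13 and 5.08 under Eed shRNA and at 5.28, 5.13 and 5.15 under Suz12 shRNA, with intervals from -0.13 to 0.08 and from -0.07 to 0.14. The changes of Bank1 and Prf1 were larger than any upper bound of these intervals.

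Cd3e gave the flattest values. It was at 6.86, 6.81 and 6.78 in the controls and at 6.81 on all 6 knockdown arrays. To every digit deposited, 7 of the 9 arrays held the same value. Of 34760 probe sets, 155 (0.446%) repeated a value on 7 or more arrays, and 43.4% repeated one on at least 2, so the spread of Cd3e in the knockdown groups cannot be read as replicate error. Cd3e changed by -0.01 in each comparison (95% interval -0.09 to 0.07). Its level of 6.81, above 98.0% of olfactory receptor genes, did not move with the knockdowns, and its partner chain gene Cd3d, which lies beside it in the genome, was at 5.6 in the controls, below the guide.

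**Figure D3:**
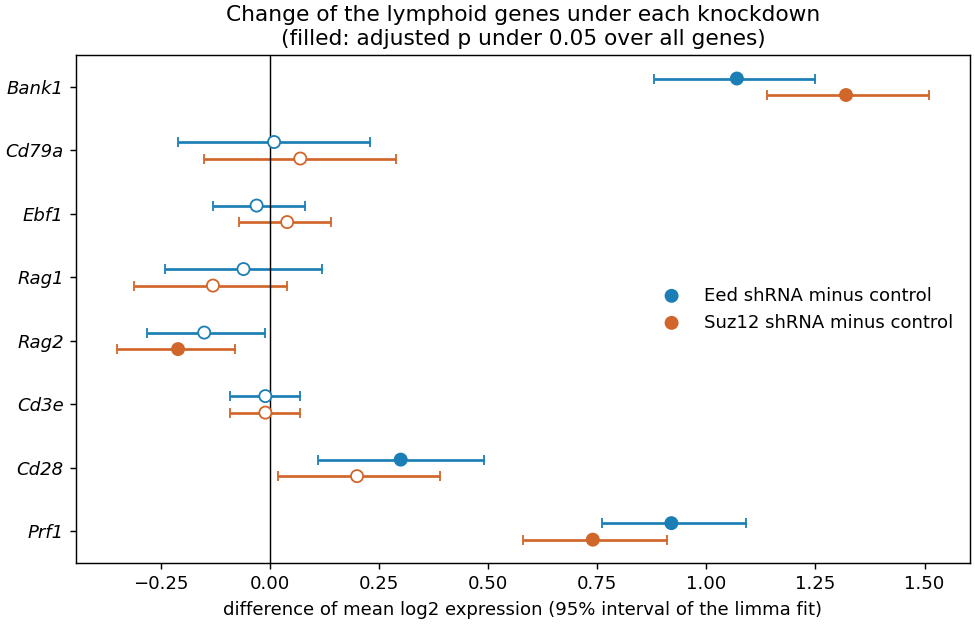
Difference of mean log2 expression from the controls for each gene, blue for Eed shRNA and orange for Suz12 shRNA, with 95% intervals from the limma fit; filled points had an adjusted p under 0.05 over all genes. Bank1 and Prf1 lie between 0.74 and 1.32, and the intervals of Cd79a, Ebf1, Rag1 and Cd3e include 0 in both comparisons.

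Between the knockdowns, 0 of the 8 genes were called by limma, against 0.176% of all genes, and 2 had an unadjusted p under 0.05, as did 6.06% of all genes. Bank1 was higher under Suz12 shRNA than under Eed shRNA by 0.26 (95% interval 0.08 to 0.44, adjusted p = 0.566). Prf1 was lower under Suz12 shRNA (difference -0.18, interval -0.34 to -0.02, adjusted p = 0.772). The arrays of the knockdowns did not overlap for these genes, though neither difference passed the test over all genes. Among all genes, 4.6% had every Suz12 shRNA array above every Eed shRNA array and 5.51% every one below. For the other 6 genes the differences ran from -0.10 to 0.06.

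The genes with the profile closest to Bank1 over the 9 arrays, by Euclidean distance between values centred on each gene's mean, were Des (distance 0.164), Slc6a4 (0.240), Atp1b1 (0.282), Adgre1 (0.285) and P2ry1 (0.305). Des encodes the muscle filament protein desmin, Slc6a4 the serotonin transporter, Atp1b1 a sodium pump subunit, Adgre1 the macrophage marker F4/80 and P2ry1 a receptor for ADP. Those closest to Prf1 were Sipa1l1 (0.184), the histone demethylase gene Kdm5b (0.222), Ppm1e (0.236), Ceacam16 (0.254) and Magi3 (0.261). The genes near Prf1 changed by 0.85 to 0.95 under Eed shRNA and by 0.65 to 0.87 under Suz12 shRNA. No gene of the lymphoid lists was among these 10. Those lists hold few of the 19937 genes tested, so their absence here carries no information.

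Other genes of the B lineage were mostly not called, and their levels lay on both sides of the guide. Of 17 measured, 1 was higher and 16 were not called under Eed shRNA, and 2 were higher and 15 not called under Suz12 shRNA. For this list and those below, the shares called among all genes were 21.8% under Eed shRNA and 21.2% under Suz12 shRNA. A mean above the guide in at least 1 group was found for 8 of the 17. The surface lectin gene Cd72 changed by 0.55 (adjusted p = 0.000148) and 0.45 (adjusted p = 0.000523), from 6.25 in the controls to 6.80 and 6.70. Blnk, the adaptor of the B cell receptor, changed by 0.32 under Suz12 shRNA (adjusted p = 0.0107) and by 0.21 under Eed shRNA (adjusted p = 0.0765). It was called under Eed shRNA too without Suz12 shRNA replicate 2 (0.21) and in a fit of the 2 groups alone. The surrogate light chain gene Igll1 changed by -0.09 and -0.24 and was not called, though under Suz12 shRNA it was called as lower after centring on array medians (-0.29), after quantile normalization (-0.27), among genes above the guide (-0.24) and without Suz12 shRNA replicate 2 (-0.34). Pax5, the factor that holds B cell identity, was at 6.12, 6.14 and 6.08 in control, Eed shRNA and Suz12 shRNA arrays. The list's median change was 0.04 and 0.01, close to the median of all genes.

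Of the T lineage genes 13 of 21 measured had a mean above the guide in at least 1 group, the highest being Ubash3a (11.23, 11.24 and 11.06), a regulator of T cell receptor signalling. Of the 21, 2 were higher and 19 not called under Eed shRNA, while Suz12 shRNA raised 1, lowered Ubash3a (-0.17) and left 19 not called, with median changes of 0.04 and 0.01. The Ubash3a call was lost after quantile normalization (-0.13), after cyclic loess (-0.11) and without control replicate 1 (-0.16) or 3 (-0.18) or any 1 Suz12 shRNA replicate (-0.18 to -0.16), and the list's count under Suz12 shRNA ran from 1 to 3 when 1 array was left out. Gata3, a factor of T helper, innate lymphoid and early T cells, rose by 0.40 (adjusted p = 0.0022) and 0.36 (adjusted p = 0.00409). Lat, the adaptor of the T cell receptor, rose by 0.37 under Eed shRNA (adjusted p = 0.0425) and changed by 0.28 under Suz12 shRNA (adjusted p = 0.121). The call of Lat under Eed shRNA was lost after quantile normalization (0.30) and without any 1 of control replicates 1 (0.35) and 3 (0.28), the Eed shRNA replicates (0.34 to 0.43) or Suz12 shRNA replicate 3 (0.37), and it was called under Suz12 shRNA without control replicate 2 (0.39) and with a replicate block (0.28). The inhibitory receptor gene Cd5 changed by 0.19 and 0.09 and was not called, except under Eed shRNA without control replicate 1 (0.25). Cd8a lay at 6.33 in the controls, 6.40 under Eed shRNA and 6.31 under Suz12 shRNA.

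Of 19 NK and cytotoxic genes measured other than Prf1, 0 were called higher by limma in either comparison, under all 18 alternatives as well. In each comparison 1 was lower. Among all genes, 8.78% were called higher under Eed shRNA and 8.25% under Suz12 shRNA, so a count of 0 in 19 says little. Only 3 of the 19 had a mean above the guide in any group. The receptor gene Klrd1 fell by 0.17 under Eed shRNA (adjusted p = 0.036). That call was lost without any 1 of 7 arrays (adjusted p between 0.0518 and 0.12) and with the replicate block. It was also lost in a fit of the 2 groups alone (adjusted p = 0.0809). The NK receptor gene Ncr1 fell by 0.15 under Suz12 shRNA (adjusted p = 0.0173), a call that did not hold when control replicate 1 (-0.14), control replicate 2 (-0.14) or Suz12 shRNA replicate 1 (-0.13) was left out. Klrk1, the gene of the activating receptor NKG2D, changed by -0.17 and -0.12, and Klrb1c, which encodes NK1.1, by 0.11 and 0.04, and neither was called; after centring on array medians Klrk1 was called as lower under Eed shRNA (-0.23), and Klrd1 under Suz12 shRNA (-0.18), as it was without control replicate 3 (-0.18). These genes lay between 4.55 and 5.37 in the controls, inside the range of the olfactory receptors.

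The machinery that releases perforin in cytotoxic cells is shared with granulocytes, and all 10 of its genes measured were above the guide. Eed shRNA raised 5 of them and lowered 1, and Suz12 shRNA raised 4 and lowered 1. Stx11, a syntaxin of granule fusion, rose by 0.53 and 0.52, and Lyst, which shapes lysosome-related granules, rose by 0.60 and 0.78. Serpinb9, the granzyme B inhibitor, fell by 0.42 under Eed shRNA and by 0.57 under Suz12 shRNA. The list's median was 0.10 and 0.04. The count under Eed shRNA was 3 without Eed shRNA replicate 2 or 3, and 3 in each comparison after centring on array medians.

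Early lymphoid factors and receptors were mostly expressed, with 17 of 18 above the guide. In each comparison 6 were higher and 2 lower, with medians of 0.01 and 0.04, and the Eed shRNA count was 5 in all without control replicate 2 or Eed shRNA replicate 3. Id2, an inhibitor of E proteins that innate lymphoid, NK and dendritic cells need, rose by 1.05 in each comparison. Il7r, the receptor chain for the lymphoid growth factor IL-7, was at 6.91, 7.0 and 7.02 in the controls, 8.19, 7.99 and 7.79 under Eed shRNA and 7.84, 7.77 and 7.82 under Suz12 shRNA. That was a rise of 1.02 (adjusted p = 1.88e-05) and 0.84 (adjusted p = 6.98e-05). Flt3, the receptor of early lymphoid and dendritic progenitors, fell by 1.24 and by 1.41. Cd79a, Ebf1, Rag1 and Pax5 lay below the guide in every group.

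Of the 10 measured genes of V(D)J recombination and end joining, the pathway that completes the cut made by RAG1 and RAG2, 3 were lower and 0 higher under Eed shRNA, and 3 were lower and 1 higher under Suz12 shRNA. The lower genes were Atm (-0.31 and -0.26), the kinase that senses double-strand breaks, Prkdc (-0.31 and -0.29), the catalytic subunit of DNA-PK, and Xrcc6 (-0.31 and -0.25), which encodes KU70; the gene higher under Suz12 shRNA was its partner Xrcc5 (0.37, adjusted p = 0.017), a call lost without control replicate 1 (0.28) and in a fit of the 2 groups alone (0.37). The call of Xrcc6 under Suz12 shRNA was lost without control replicate 3 (-0.20) or Suz12 shRNA replicate 2 (-0.24) or 3 (-0.22). Of the 10 genes 9 lay above the guide, and the exception was Dntt (5.45 in the controls), which encodes the terminal transferase of lymphoid precursors.

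Partners of the antigen receptors inside the cell were expressed in these myeloid cells, with 17 of 18 above the guide. Of them 5 were higher and 1 lower in each comparison, with medians of 0.02 and -0.01. Prkcb, the protein kinase C of B cell receptor signalling, rose from 9.96 to 10.64 and 10.75 (0.68, adjusted p = 1.03e-05, and 0.79, adjusted p = 3.64e-06). Itpr2, which encodes a calcium release channel of the family that BANK1 binds, rose by 0.66 and 0.57. Cblb, the ubiquitin ligase that restrains these receptors, changed by -0.35 and -0.19, the smaller change losing its call without control replicate 3 (-0.17) or any 1 Suz12 shRNA replicate (-0.19), and after quantile normalization (-0.14) or cyclic loess (-0.12). Without Suz12 shRNA replicate 2, 3 of the 18 were called under Suz12 shRNA.

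**Figure D4:**
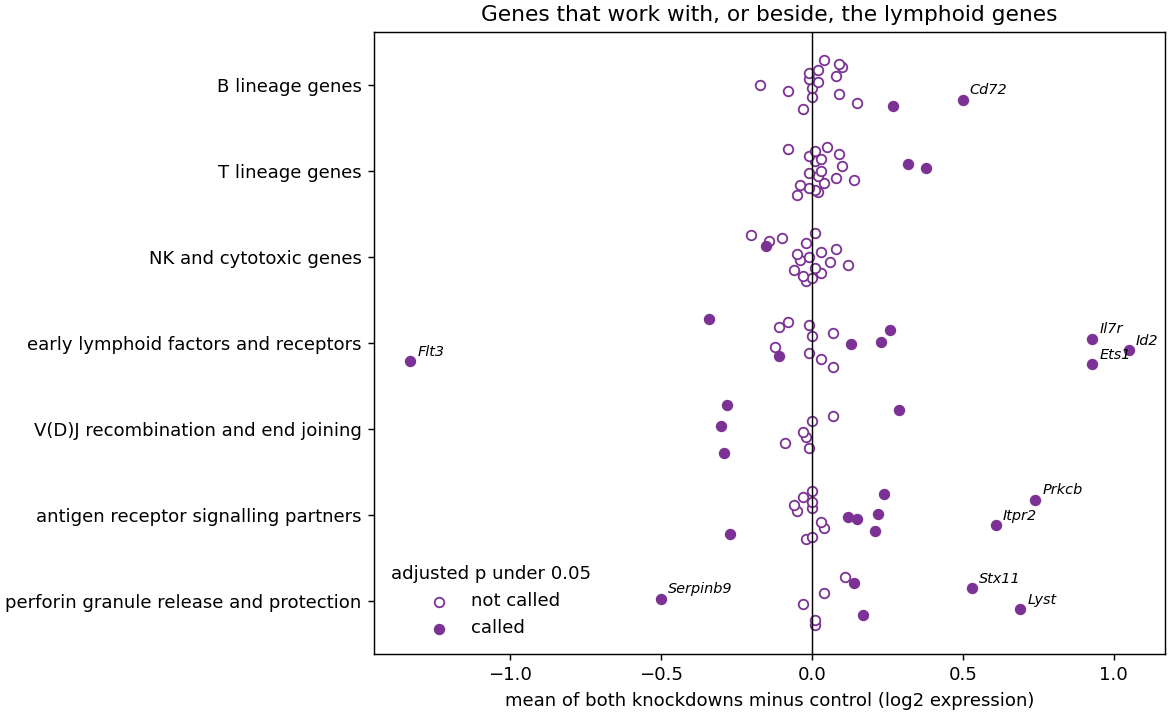
Each point is a gene of a list, placed by the mean of both knockdowns minus the control (log2 expression), and filled where the adjusted p was under 0.05 over all genes, a threshold that 25.2% of all genes passed in this contrast. Points of the B, T and NK lists gather within about 0.5 of 0, while Id2, Il7r, Ets1, Prkcb and Lyst lie to the right and Flt3 far to the left.

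Markers of other myeloid cells changed in the same comparisons, in both directions. Of 7 eosinophil genes measured, 5 were higher and 0 lower in each comparison, with Prg2 up by 4.31 and 4.67, Epx by 2.75 and 2.87 and Prg3 by 2.22 and 2.46. Of the surface receptor genes of the list, Il5ra rose by 0.74 (adjusted p = 0.000416) and 1.01 (adjusted p = 6.12e-05). Siglecf (-0.09 and -0.12) and Ccr3 (-0.06 and 0.07) were not called. The mean level of that list ran from 6.49 to 6.56 over the controls, from 8.01 to 8.11 over the Eed shRNA arrays and from 8.15 to 8.27 over the Suz12 shRNA arrays. Of 10 dendritic cell genes, 2 were higher under Eed shRNA, and 2 were higher and 1 lower under Suz12 shRNA. The higher genes were Itgax (1.55 and 1.60) and Ly75 (0.56 and 0.59), while 8 and 7 genes of the list were not called. The list's mean level ran from 6.67 to 6.71 in the controls and from 6.86 to 6.99 in the knockdowns, but its median change was only 0.02 and 0.09. Tcf4, the factor of plasmacytoid dendritic cells, changed by -0.11 and -0.12, and its call under Suz12 shRNA was lost under 12 of the 18 alternatives, the replicate block among them. Of the 12 myeloid identity genes, 6 were higher and 4 lower in each comparison, with Lyz2 (1.01 and 0.94), Cd33 (0.68 and 0.74) and Itgam (0.70 and 0.69) risen. The 4 lower genes were Cebpa (-0.73 and -0.82), a factor of granulocyte formation, and the granule enzyme genes Prtn3 (-0.48 and -0.43), Elane (-0.30 and -0.34) and Mpo (-0.23 and -0.27). The part of these cell types in the rise of Bank1 and Prf1 was not tested. In the B lineage list Pax5 was below the guide in every group and Cd79b (7.83, 7.86 and 7.79 in control, Eed shRNA and Suz12 shRNA arrays) above it, and in the NK list Ncr1 and Klrb1c were below it and Nkg7 (8.37, 8.31 and 8.02) above it. The mean level of the B list ran from 6.23 to 6.31 over the controls, from 6.33 to 6.37 over the Eed shRNA arrays and from 6.30 to 6.38 over the Suz12 shRNA arrays, and that of the NK list from 5.68 to 5.69, from 5.65 to 5.68 and from 5.60 to 5.72.

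Of the 1027 olfactory receptor genes, 1 was called under Eed shRNA (0.0974%) and 6 under Suz12 shRNA (0.584%), and their changes had a median of -0.01 under Eed shRNA. The largest rise of any of them was 0.48 under Eed shRNA and 0.45 under Suz12 shRNA. Bank1 and Prf1 rose more, but the members were chosen with earlier results known, so this comparison is no support for their rises.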

How the data were processed

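Total RNA of 9 samples was labelled with an Affymetrix kit and measured on arrays, per the labels' protocols. The authors deposited RMA output, on a scale that the values show to be log2; RMA is named in the submitters' processing notes. Its version and the probe annotation are not stated or given in the sources used here. The values ranged from 3.38 to 14.46 with array medians between 6.86 and 6.95. RMA corrects background, quantile-normalizes and summarises probes, and gives no detection call. Of 34760 probe sets, 21640 carried 1 gene symbol and 19937 genes were kept, each by its probe set with the highest mean; 1321 had several symbols, 11799 were unnamed here, and 21553 matched GRCm38.p6 by gene number.

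A model with 1 mean per group was fitted across all genes with limma 3.58.1 in R 4.3.3 (lmFit, eBayes, 6 residual degrees of freedom and a prior of 4.11), two-sided, with Benjamini-Hochberg adjustment over all genes; called means an adjusted p under 0.05. Changes are differences of mean log2 values. The fit was tested on simulated data. The labels give no batch. The number of arrays limits the precision.

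The members and all gene lists were chosen with earlier results of these data known. Named genes are the members, Eed and Suz12, up to 3 genes per list with the smallest adjusted p for both knockdowns against control, fixed defining markers, and the 5 genes nearest in profile to a member called by the F test. Ets1, Ubash3a, Xrcc5, Cd79b, Nkg7, Dntt, Cebpa, Prtn3, Elane, Siglecf, Ccr3, Il5ra and the neighbours of members, outside that rule, were chosen after their values were seen. Alternatives covered scaling, replicate block, variance model, dim genes, probe set choice, the groups fitted and each array left out.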

Additional observations from a re-analysis of the deposited data

How the results depend on the processing

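The calls of Bank1 and Prf1 against the control kept their direction and passed the threshold under all 18 alternatives, with Bank1 between 1.01 and 1.15 under Eed shRNA and between 1.25 and 1.41 under Suz12 shRNA, and Prf1 between 0.86 and 0.99 and between 0.67 and 0.81. Cd28 under Eed shRNA lost its call in 6 of the 18, and Rag2 under Suz12 shRNA in 4 of 17. The number of members called stayed within 1.5 times in each comparison with the control, at 2 to 3 under Eed shRNA and 2 to 4 under Suz12 shRNA. Without dim genes only 4 members were tested, so the other 4 have no value there. The number of members called by the moderated F test, 2, was 4 with an intensity trend in eBayes and 2 to 4 when 1 array was left out; these F tests and the list counts were added after seeing the data. With the 99th percentile as guide, 1 member lay above it in the controls in place of 4; with vomeronasal receptors as guide it was 5. A replicate block gave 3 members called in each comparison with the control, and it changed no call of a member. Same-numbered arrays did not deviate together (r from -0.167 to 0.201 over 9 pairs, with 6 of 18 best matches carrying the own number). No pairing by number was thus visible, but whether same-numbered arrays were handled together cannot be told from this. The NK list went from 1 call under Eed shRNA to 3, all lower, after centring on array medians and to 0 with the replicate block; under Suz12 shRNA it ran from 0 to 3, all lower; the T list, from 2 to 1 under Eed shRNA after quantile normalization. The cause was not tested. Dim probe sets limit what can be seen: for Rag1, Rag2, Cd79a and Ebf1 a small amount of RNA cannot be told from background.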

Other observations

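The nearest measured protein-coding genes on either side of each member in GRCm38.p6 were looked at after the data were seen, 14 genes in all besides the members. Under Eed shRNA 2 were higher and 1 lower, and under Suz12 shRNA 1 was higher and 1 lower. Among all genes, 21.8% were called under Eed shRNA and 21.2% under Suz12 shRNA, so these counts say little about the neighbours. The neighbours of Bank1 were not called: the zinc transporter gene Slc39a8 changed by 0.05 and 0.09, and the calcineurin gene Ppp3ca by 0.07 and 0.10 (Eed, then Suz12 shRNA). Beside Prf1, Adamts14 changed by 0.03 and -0.03 and was not called, and Pald1 rose by 0.23 under Eed shRNA (adjusted p = 0.00774) and changed by 0.12 under Suz12 shRNA (adjusted p = 0.146; called without control replicate 2, 0.18). Beside Ebf1, the ubiquitin ligase gene Rnf145 rose by 0.31 and 0.17 (the smaller rise was not called after centring on array medians, 0.12). Iftap, beside Rag2, fell by 0.20 and by 0.22, calls lost without control replicate 1 (-0.19 and -0.21) or 3 (-0.18 and -0.21), under Eed shRNA also without Eed shRNA replicate 1 or 3 (-0.18 each) and after cyclic loess (-0.21), and under Suz12 shRNA also without Suz12 shRNA replicate 2 (-0.16) and with all probe sets averaged (-0.16), and Traf6, beside Rag1, changed by -0.02 and 0.03.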
